A study of Mus musculus with 13 samples.

Results

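Proprioceptors of newborn mice (postnatal day 0, P0) were compared with proprioceptors of mice at postnatal day 12 (P12). Included were all neurons that the authors' annotation keeps on the 2 plates of P0 neurons and the 4 plates of P12 neurons, 55 and 154 neurons, which is 209 of the 586 neurons kept over the 13 plates of the series. Sorted neurons of dorsal root ganglia, a single one in each well of a plate, were sequenced by Plate-seq, in which transcripts carry a well barcode and a unique molecular identifier (UMI). The study set out to define the subtypes of adult proprioceptors and added earlier stages to follow when they appear. Both stages carried the same alleles, PV:Cre+/-, Rx3:Flp+/- and Ai65+/-, so that tdTomato marks cells in which the drivers of parvalbumin and of Runx3 have both been active. By the study's account this reporter also marks a few skin afferents, which limits the sort as a model of muscle proprioceptors alone. The sources name 6 animals of either sex for P0 and 4 for P12, without saying which animals lie on which plate. The ganglia were digested for 10 minutes in each enzyme step at P0 and for 12 minutes at P12.

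Proprioceptors are the sensory neurons that report muscle length and tension, through endings on muscle spindles and Golgi tendon organs, to motor circuits of the spinal cord. At birth their axons have already reached muscle and spinal cord. In the following weeks the endings mature, the axons become thicker and gain myelin, and the neurons come to fire at high rates with brief action potentials, a property that depends on which sodium and potassium channels they make.

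The UMIs of the neurons of a plate were summed, and a plate counted as 1 replicate, 2 against 4. Levels are given in CPM, which scale the UMIs of a gene to a fixed total of UMIs in the summed neurons of a plate. P0 plates 1 and 2 held 31 and 24 neurons, and P12 plates 1 to 4 held 12, 13, 67 and 62. Mean depth per neuron was 44139 and 38306 UMIs on the P0 plates and 65165, 52324, 28433 and 21753 UMIs on P12 plates 1 to 4, so the P0 plates lay between the pairs of P12 plates. Neurons had UMIs of 7286 and 6729 genes on average at P0 and of 8119, 7500, 5482 and 4764 genes at P12. P12 plates 1 and 2 carry adjacent plate numbers, as do plates 3 and 4, and these pairs differed from each other. Across genes, Pearson's r of log2(CPM + 10) was 0.977 within the P0 plates, 0.963 and 0.985 within the P12 pairs, 0.910 to 0.928 between the P12 pairs, and 0.864 to 0.893 between P0 and P12 plates. All 25 neurons of P12 plates 1 and 2 fall in the authors' P12 clusters 2 and 3, and all 129 neurons of plates 3 and 4 in clusters 1, 4 and 5, so plate pair and cluster cannot be told apart. Since the labels tie no plate to an animal, p-values measure only the spread between plates, which may be technical, and values are given for each plate. Well barcodes repeat from plate to plate, and between 1 and 42 barcodes of kept neurons were shared by any 2 of the 6 plates. Each of the 339 listed genes whose symbol begins with U is at 0 in all wells of the series, which says nothing of their expression. In bulk sums, fewer neurons with a transcript and less of it per neuron cannot be told apart, so the share of neurons with a UMI is given where it bears on a result.

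Of 9771 genes tested, 1569 (16.1%) were called between P12 and P0 at an adjusted p under 0.05, 739 of them higher at P12 (7.56%) and 830 lower (8.49%). The median log2 difference over all genes tested was 0.0196. Against P0, P12 plates 1 and 2 alone gave 2876 called genes of 8400 tested (34.2%), 1403 of them higher (16.7%) and 1473 lower (17.5%). Plates 3 and 4 alone gave 4052 of 9676 (41.9%), 1991 higher (20.6%) and 2061 lower (21.3%). Both of these fits share the P0 plates. Between the P12 pairs themselves 1874 of 8644 genes were called (21.7%), 754 of them higher on plates 1 and 2 (8.72%), and 189 of the 1569 genes were among them. A fit with a term for the P12 pairs, added after the data were seen, called 3718 genes, including all 1569. The call rests on both P0 plates: without P0 plate 1, 255 genes were called (2.58%), 85 higher (0.862%) and 170 lower (1.72%), and 248 of them were among the 1569. Without P0 plate 2, 201 genes were called (1.83%), 77 higher (0.701%) and 124 lower (1.13%), and 198 of them were among the 1569. These shares are the background against which counts of list members called in each fit are to be read. In the fits on 1 P0 plate, that plate is assumed to vary as the P12 plates do. Of the 1569 genes, all that could be tested there kept their direction, 1545 without P0 plate 1 and 1569 without P0 plate 2. These fits reuse the remaining plates, so this is no separate check. A call lost there need not mean a changed difference. A call is given as kept on a single P0 plate where it held without each P0 plate in turn, and as lost where it failed without at least 1 of them. Both P0 plates also carry earlier plate numbers than the P12 plates. With a term for early and late plate numbers, estimated from adult plates, 1835 genes were called, 1099 higher and 736 lower, and 987 of the 1569 (62.9%) were among them.

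Neurons of both stages carried markers of proprioceptors, of which *Pvalb* and *Runx3* drive the reporter used for the sort. Of 10 identity genes tested, 2 were called higher at P12 and 1 lower, against 7.56% and 8.49% of all genes tested, and 7 were not called, with a median log2 difference of -0.11. *Pvalb*, which encodes the calcium buffer parvalbumin, had a UMI in all 209 neurons. Its level was 3624 and 3493 CPM on the P0 plates and 2807, 3183, 3415 and 3387 CPM on P12 plates 1 to 4, a log2 difference of -0.08 (standard error 0.20, adjusted p = 0.814). *Ntrk3*, the receptor of neurotrophin 3, was at 450.2 and 476 CPM and at 730.2, 553, 404 and 294 CPM, so the P0 plates fell among the P12 plates. The transcription factor *Runx3* was at 42.4 and 38.1 CPM at P0 and at 38.4, 42.6, 15.2 and 19.3 CPM at P12, lower on the shallower P12 pair. At each neuron's own depth, 44 of 55 P0 neurons and 62 of 154 P12 neurons had a UMI of it. *Isl1*, *Pou4f1*, the mechanotransduction channel *Piezo2* and the vesicular glutamate transporter *Slc17a7* were not called either, the last at 68.7 and 67.4 CPM and 223, 189.6, 78.2 and 81.6 CPM (log2 difference 1.08, adjusted p = 0.111). The log2 difference of *Pou4f1* was -0.35 (adjusted p = 0.557) and turned to 1.69 with the term for plate numbers (adjusted p = 0.0142).

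Against P0, P12 plates 1 and 2 alone gave 4 identity genes higher and 2 lower, and plates 3 and 4 alone 2 and 3. *Slc17a7* was called higher on plates 1 and 2 (log2 difference 1.58, adjusted p = 3.79e-05). *Runx3* was called lower on plates 3 and 4 (-1.09, adjusted p = 0.00423). With all plates, the calls within the identity list lay in 3 genes. *Spp1* (chromosome 5, 104435111 to 104441053), the secreted phosphoprotein osteopontin, was at 82.6 and 99 CPM on the P0 plates and 743, 816, 810.5 and 615 CPM on P12 plates 1 to 4. No P12 plate came near the P0 plates, and the log2 difference was 3.10 (standard error 0.22, adjusted p = 0.000233). After each neuron was thinned to 5000 UMIs, 25.8% and 29.2% of P0 neurons and 83.3%, 76.9%, 70.2% and 70.5% of P12 neurons had a UMI of *Spp1*. *Whrn*, which encodes the scaffold protein whirlin, was at 26.3 and 31.5 CPM and 57.5, 51.5, 71.4 and 51.9 CPM, a log2 difference of 1.10 (standard error 0.26, adjusted p = 0.0225). The ETS factor *Etv1*, needed for proprioceptor connections, was at 986 and 909 CPM at P0 and 615, 691, 402 and 379.6 CPM at P12 (log2 difference -0.82, adjusted p = 0.0384). With 1 P0 plate left out, *Spp1* kept its call, while *Whrn* and *Etv1* lost theirs (adjusted p up to 0.245, *Etv1*). Calls were also lost for *Etv1* without P12 plate 3 or 4 (adjusted p 0.0919 and 0.0607, in this order) and for *Etv1* with a term for plate numbers.

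The largest falls were in genes of varied function. They were sought among the 12 called genes with the largest fall at 50 CPM or more on average at the higher stage, of which 10 are named here. *Reg3b*, a secreted lectin, came first at 264 and 19.6 CPM on the P0 plates and 0, 0, 0 and 1.48 CPM on the P12 plates. It was uneven within P0: 12 of 55 neurons had a UMI, the highest of them at 6975 CPM, and the fitted difference rests on 2 UMIs at P12. Over the pooled neurons the level was 390.6 times higher at P0 (95% counting interval 107.4 to 3237). *Nnat* (chromosome 2, 157560078 to 157562525), the imprinted neuronatin, lies inside *Blcap* in RefSeq, and whether UMIs were counted by strand is not given in the sources used here. It was at 159 and 132 CPM and 1.28, 1.47, 0 and 2.22 CPM. A UMI was found in 53 of 55 P0 neurons and in 5 of 154 P12 neurons. The log2 difference was -6.85 (standard error 0.46, adjusted p = 0.000217). *Gal*, the neuropeptide galanin, was at 46.8 and 173 CPM and 1.28, 1.47, 1.05 and 1.48 CPM, with a UMI in 24 P0 neurons and 6 P12 neurons. Its P0 plates differed from each other, and the log2 difference was -6.21 (standard error 0.62, adjusted p = 0.000685).

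**Figure D1:**
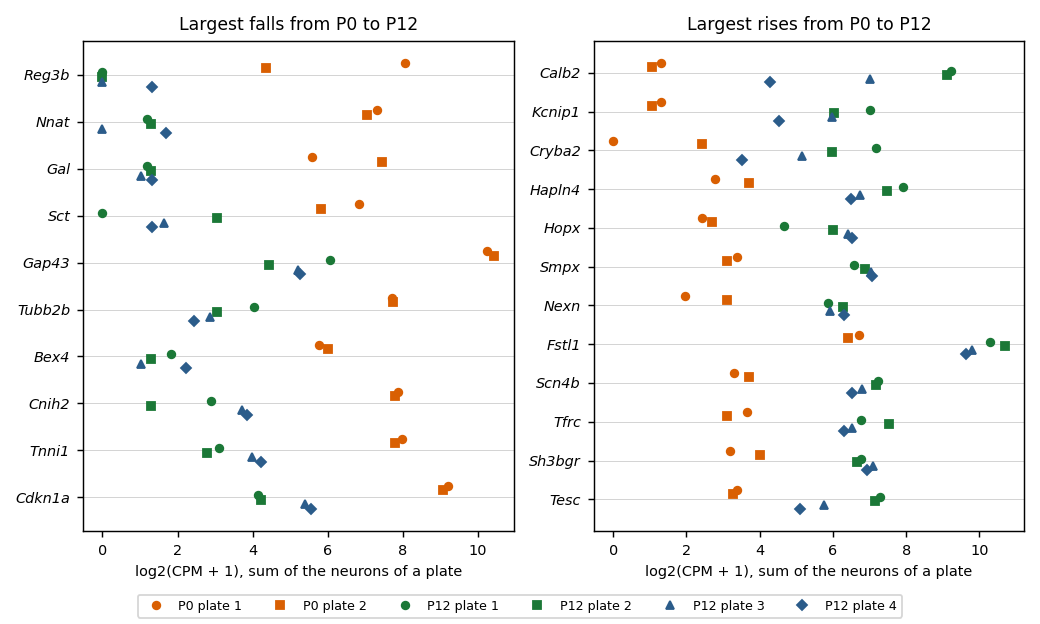
Levels of 10 of the 12 genes with the largest falls (left) and the 12 with the largest rises (right) from P0 to P12, as log2(CPM + 1) of the summed neurons, with 1 symbol per plate. P0 plates are orange, and P12 plates green (plates 1 and 2) or blue (plates 3 and 4). The genes were picked for large called differences, so the gap between the stages for every gene shown follows from that choice. The P12 pairs separate for *Calb2*, at 592 and 553 CPM against 127 and 18.5 CPM.

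*Gap43* (chromosome 16, 42248552 to 42340651), a protein of growth cones that binds calmodulin, separated the stages neuron by neuron. It was at 1211 and 1379 CPM on the P0 plates and at 65.2, 20.6, 36.2 and 37.1 CPM on P12 plates 1 to 4, a log2 difference of -4.96 (standard error 0.32, adjusted p = 0.000217). Single P0 neurons ran from 722 to 2113 CPM. The highest of the 154 P12 neurons reached 399 CPM, so no neuron of either stage crossed into the range of the other. *Tubb2b*, a β-tubulin of young neurons, went from 209.7 and 212 CPM to 15.3, 7.35, 6.3 and 4.45 CPM (log2 difference -4.68, adjusted p = 0.000217).

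The remaining falls of this size were in *Cdkn1a*, *Tnni1*, *Cnih2*, *Sct* and *Bex4*. *Cdkn1a*, the cell cycle inhibitor p21, was at 585 and 539.5 CPM at P0 and 16.6, 17.6, 41.5 and 46 CPM at P12. All 55 P0 neurons had a UMI of it, against 63 of 154 P12 neurons. Its log2 difference was -4.02 (standard error 0.39, adjusted p = 0.000594). At P0 it was higher in the authors' P0 clusters 1 and 3 (666 and 550 CPM over their neurons) than in cluster 2 (334 CPM). *Tnni1*, troponin I of slow muscle, was at 251 and 219.7 CPM and 7.67, 5.88, 14.7 and 17.8 CPM (log2 difference -4.13). *Cnih2*, an auxiliary subunit of AMPA receptors, the secretin gene *Sct* and *Bex4* fell with log2 differences of -4.49, -5.01 and -4.60 (adjusted p = 0.000586, 0.00116 and 0.000518). The P0 level of *Sct* came mainly from P0 cluster 2 (12 neurons), at 283 CPM, against 22.1 and 12.8 CPM in P0 clusters 1 and 3. All of these lay above the P12 clusters (at most 4.68 CPM). After 1 P0 plate was removed, *Nnat*, *Gal*, *Sct*, *Gap43*, *Tubb2b*, *Bex4*, *Cnih2*, *Tnni1* and *Cdkn1a* kept their calls, while *Reg3b* lost its own (adjusted p up to 0.0779). Other alternatives ended the call for *Reg3b*, *Nnat*, *Sct*, *Tubb2b* and *Bex4* with a term for plate numbers. Leaving out single plates moved the fitted log2 difference of *Reg3b* to between -10.31 (without P12 plate 4) and -5.11 (without P0 plate 1), of *Nnat* to -6.17 (without P12 plate 3) and -7.61 (without P12 plate 4), of *Gal* to -6.88 (without P0 plate 1) and -4.95 (without P0 plate 2) and of *Sct* to -4.39 (without P0 plate 1) and -5.65 (without P12 plate 2).

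The promoters of 2 genes that fell and 2 that rose are shown as examples of both directions, chosen after their values were seen. Each is 250 bases before and 50 after a RefSeq start, on GRCm38.p6. The windows are read 5′ to 3′ on the strand of the gene, with the GC box GGGCGG on either strand in capitals.
*Nnat*, lower at P12, chr2:157559828-157560127, + strand: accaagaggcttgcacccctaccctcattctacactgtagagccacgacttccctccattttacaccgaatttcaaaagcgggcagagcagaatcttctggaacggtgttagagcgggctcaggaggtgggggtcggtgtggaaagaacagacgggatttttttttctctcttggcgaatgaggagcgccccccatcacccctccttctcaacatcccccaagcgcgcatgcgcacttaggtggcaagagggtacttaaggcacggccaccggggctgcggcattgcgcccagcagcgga
*Basp1*, lower at P12, chr15:25413715-25414014, - strand: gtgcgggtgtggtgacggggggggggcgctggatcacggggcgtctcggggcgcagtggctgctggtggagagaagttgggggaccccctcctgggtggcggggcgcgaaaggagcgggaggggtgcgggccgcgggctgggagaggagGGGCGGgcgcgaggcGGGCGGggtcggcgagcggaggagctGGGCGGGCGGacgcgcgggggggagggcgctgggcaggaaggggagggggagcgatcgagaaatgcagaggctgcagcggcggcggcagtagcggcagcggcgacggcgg
*Vamp1*, higher at P12, chr6:125215331-125215630, + strand: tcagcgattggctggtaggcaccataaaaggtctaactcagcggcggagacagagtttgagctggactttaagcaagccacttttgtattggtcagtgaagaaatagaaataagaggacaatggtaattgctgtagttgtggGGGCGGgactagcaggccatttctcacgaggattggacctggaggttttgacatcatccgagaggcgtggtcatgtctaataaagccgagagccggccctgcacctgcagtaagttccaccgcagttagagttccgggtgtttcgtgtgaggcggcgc
*Nxph1*, higher at P12, chr6:8949769-8950068, + strand: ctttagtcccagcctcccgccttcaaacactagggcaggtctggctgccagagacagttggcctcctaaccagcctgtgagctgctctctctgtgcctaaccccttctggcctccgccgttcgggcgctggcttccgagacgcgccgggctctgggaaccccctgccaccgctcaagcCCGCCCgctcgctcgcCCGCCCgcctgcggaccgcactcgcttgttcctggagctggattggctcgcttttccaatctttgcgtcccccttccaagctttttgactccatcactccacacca

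The *Nnat* window held no GC box, that of *Basp1* held 4 (a pair of them overlapping), that of *Vamp1* 1 and that of *Nxph1* 2. The letters GGGCGG, searched on both strands, were in 35.7% of all 32851 promoters, in 63.2% of those of tested genes, in 63.5% of those called higher at P12 and in 63.7% of those called lower. Again on both strands, TATAAA was in 6.27% of the promoters of genes called higher and 7.73% of those called lower, against 6.84% for tested genes. CACGTG was in 9.40% and 9.58%, against 10.2%, and AAGGTCA in 2.26% and 2.32%, against 3.04%. The promoters of risers and fallers thus held these letters about as often as those of all tested genes, of which 6910 of 9771 had an entry.

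Many genes of axon growth were lower at P12. Of 29 tested, 17 were called lower at P12 and 1 higher, against 8.49% and 7.56% of all genes tested, with a median log2 difference of -0.935 against 0.0196 over all genes. *Basp1*, a membrane protein related in function to *Gap43*, was at 631 and 600.4 CPM on the P0 plates and 81.8, 72, 54.1 and 46.7 CPM on P12 plates 1 to 4. The log2 difference was -3.24 (standard error 0.19, adjusted p = 0.000217), and the plates of each stage lay close together. *Marcks*, an actin regulator at the membrane, was at 108 and 97.9 CPM and 14.1, 8.82, 10.5 and 7.41 CPM (log2 difference -3.27, adjusted p = 0.000285). *Dcx*, the microtubule protein doublecortin of migrating and growing neurons, had 92 UMIs at P0 and 1 at P12. Pooled over neurons it was 189.7 times higher at P0 (95% counting interval 33.2 to 7571).

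Also lower were *Stmn1*, a tubulin-binding protein, and the adhesion molecule *Ncam1*, both named after their values were seen. *Stmn1* was at 62.9 and 70.7 CPM and 14.1, 10.3, 2.1 and 7.41 CPM, and *Ncam1* at 281 and 258 CPM and 34.5, 44.1, 27.3 and 35.6 CPM (log2 differences -3.08 and -2.88, adjusted p = 0.00357 and 0.000233). The further members called lower were *Marcksl1*, *Sox4*, *Dclk1*, *Stmn4*, *Sox11*, *Mapt*, *Crmp1*, *Rtn1*, *Dpysl5*, *Gng3* and *Dpysl3*. The member that rose was *Nrcam*, an adhesion molecule of nodes of Ranvier, from 3.65 and 3.26 CPM to 30.7, 16.2, 20.5 and 12.6 CPM (log2 difference 2.52, adjusted p = 0.0101). Without P0 plate 1 the counts were 0 higher and 9 lower, without P0 plate 2 0 and 9, on P12 plates 1 and 2 alone 2 and 19, and on plates 3 and 4 alone 2 and 20. On a single P0 plate, *Basp1*, *Marcks*, *Dcx* and *Ncam1* kept their calls, while *Stmn1*, *Nrcam*, *Sox4* and *Sox11* lost theirs (adjusted p up to 0.107, *Nrcam*). Further calls were lost for *Marcks*, *Dcx*, *Stmn1* and *Sox11* with a term for plate numbers and for *Marcks* and *Sox4* in all wells with at least 2000 genes. Removal of single plates shifted the fitted log2 difference of *Dcx* to -8.49 (without P12 plate 4).

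Tubulin genes were lower where they were called. Of 11 tested, 4 were called lower and 0 higher (5 members had an unadjusted p under 0.05 in edgeR), against 8.49% and 7.56% of all genes tested. Higher and lower members numbered 3 and 4 on P12 plates 1 and 2 alone, 0 and 9 on plates 3 and 4 alone, 0 and 1 without P0 plate 1, and 0 and 1 without P0 plate 2. *Tuba1a*, the main α-tubulin of young neurons, was at 5582 and 5138 CPM and 3559, 3033, 2725 and 2785 CPM (log2 difference -0.77, adjusted p = 0.0184), and *Tubb5* at 2244 and 2070.0 CPM and 1288, 1255, 1222 and 1151 CPM (log2 difference -0.75, adjusted p = 0.0145). *Tubb2a* was the other member called lower, at -0.87 (adjusted p = 0.00971). *Tubb4b* was at 416 and 441 CPM at P0 and at 711, 569, 183 and 219 CPM at P12, above P0 on the first P12 pair and below it on the second. Among neurofilaments, *Nefh*, the heavy subunit that goes with thick axons, rose from 758 and 869 CPM to 4453, 4133, 2859.8 and 2154 CPM. The log2 difference was 2.10 (standard error 0.28, adjusted p = 0.0024). *Nefl* was at 4883 and 5317 CPM at P0 and 9614, 8224, 4209 and 3423 CPM at P12, above P0 on the first P12 pair and below it on the second. When a P0 plate was dropped, *Tuba1a*, *Tubb5*, *Tubb2a* and *Nefh* lost their calls (adjusted p up to 0.191, *Tuba1a*). The call also ended for *Tuba1a* without P12 plate 3 (adjusted p 0.0678) and for *Tubb5* with a term for plate numbers.

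Most axon guidance genes were not called. Of 27 tested, 6 were called lower at P12 and 1 higher, against 8.49% and 7.56% of all genes tested, with a median log2 difference of -0.50. The counts higher and lower became 1 and 1 without P0 plate 1, 1 and 1 without P0 plate 2, 1 and 7 on the first P12 pair alone, and 3 and 12 on the second alone. The semaphorin receptor *Plxnd1* was at 145 and 102 CPM and 8.95, 23.5, 9.97 and 10.4 CPM, a log2 difference of -3.24 (standard error 0.33, adjusted p = 0.000706). The semaphorin *Sema6a*, the ephrin *Efna3* and the plexin *Plxna3* fell with log2 differences of -2.97, -2.59 and -3.23 (adjusted p = 0.00808, 0.0135 and 0.0277), as did *Slit1* and *Epha7*. The membrane-anchored semaphorin *Sema7a* rose instead, from 16.1 and 20.7 CPM to 90.8, 94.1, 66.1 and 60.8 CPM (log2 difference 2.13, adjusted p = 0.0016). The 4 *Unc5* genes of the list are among the symbols at 0 throughout. Of 20 cadherins tested, 1 was called higher (*Clstn1*) and 3 lower (*Cdh4*, *Cdh13* and *Pcdh19*), so 20.0% were called, against 16.1% of all genes tested. P12 plates 1 and 2 alone gave 4 higher and 4 lower, plates 3 and 4 alone 1 and 9, the fit without P0 plate 1 0 and 0, and that without P0 plate 2 0 and 0. *Cdh13* was at 108 and 154 CPM and 62.7, 22.1, 42 and 29.7 CPM (log2 difference -1.68, adjusted p = 0.0127). In fits without 1 P0 plate, *Plxnd1* and *Sema7a* kept their calls, while *Sema6a*, *Efna3*, *Plxna3*, *Cdh13*, *Cdh4*, *Pcdh19* and *Clstn1* lost theirs (adjusted p up to 0.324, *Cdh4*). Calls were also lost for *Plxna3* without P12 plate 3 (adjusted p 0.0503), for *Cdh4* without P12 plate 3 or 4 (adjusted p 0.0703 and 0.0561, in this order), for *Pcdh19* without P12 plate 3 (adjusted p 0.0601), for *Sema6a*, *Plxna3*, *Cdh13*, *Cdh4* and *Pcdh19* with a term for plate numbers, for *Cdh4* in limma with neurons weighted alike, and for *Cdh4* in DESeq2. The omission of single plates moved the fitted log2 difference of *Plxna3* to -3.90 (without P12 plate 1).

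**Figure D2:**
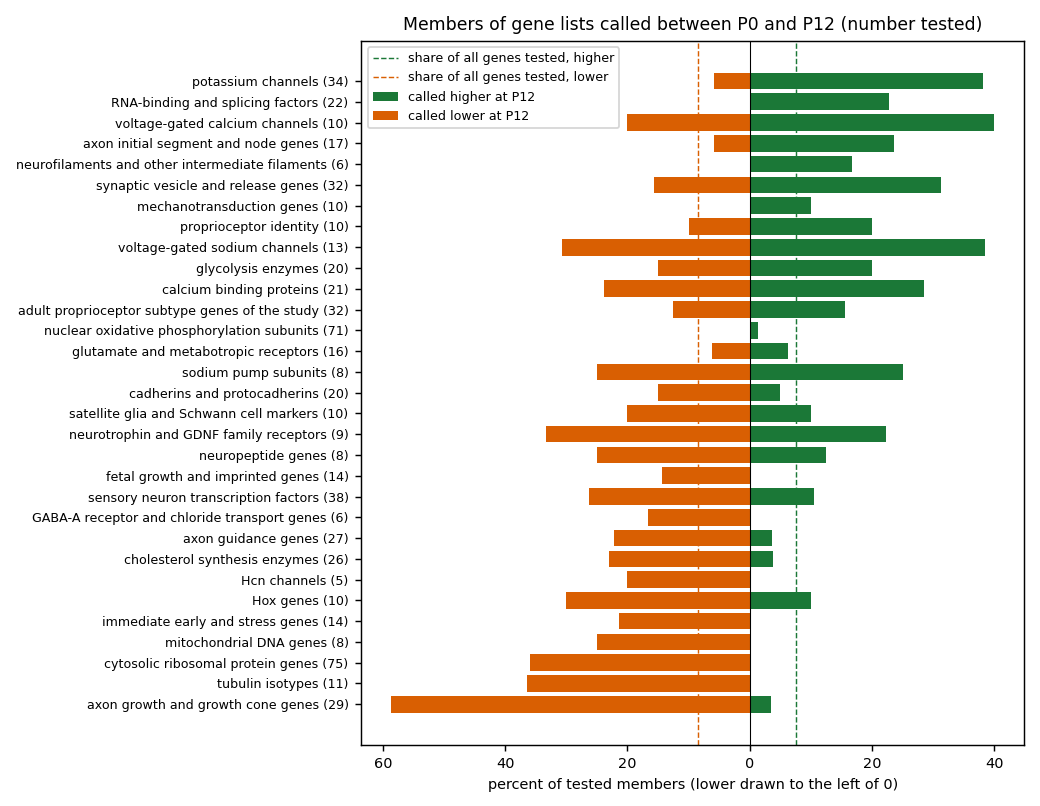
Share of the tested members of each gene list with at least 5 members tested, called higher at P12 (green, right of 0) or lower (orange, left of 0), in percent, with the number tested in parentheses and the shares over all genes tested as dashed lines (7.56% and 8.49%). Axon growth genes extend to the left, with 17 of 29 lower, and potassium and calcium channel lists extend right, with 13 of 34 and 4 of 10 higher.

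Voltage-gated sodium channel genes were called in both directions. Of 13 tested, 5 were called higher at P12 and 4 lower, against 7.56% and 8.49% of all genes tested. Without P0 plate 1 the counts were 1 higher and 1 lower, without P0 plate 2 2 and 1, on P12 plates 1 and 2 alone 5 and 6, and on plates 3 and 4 alone 5 and 7. Of the pore-forming α-subunits, *Scn2a*, *Scn3a* and *Scn9a* fell. *Scn2a*, which encodes Nav1.2, was at 87 and 69.6 CPM on the P0 plates and 14.1, 16.2, 17.3 and 17.8 CPM on P12 plates 1 to 4, a log2 difference of -2.16 (standard error 0.23, adjusted p = 0.000926). *Scn3a* (Nav1.3) was at 30.7 and 17.4 CPM and 3.84, 2.94, 7.35 and 5.93 CPM. *Scn9a* (Nav1.7) was at 288 and 264 CPM and 83.1, 103, 139 and 129.8 CPM. Their log2 differences were -2.04 and -1.18 (adjusted p = 0.0146 and 0.0169). The α-subunits *Scn8a* and *Scn1a* rose. *Scn8a* (Nav1.6), the channel of mature nodes, was at 80.4 and 102 CPM and 252, 243, 184 and 175 CPM (log2 difference 1.28, adjusted p = 0.00529). *Scn1a* (Nav1.1) was at 197 and 187 CPM and 398, 366, 278 and 225 CPM (log2 difference 0.77, adjusted p = 0.0413). The plates of the stages did not overlap for any of these genes, nor for any of the 151 named genes that were called.

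Among the auxiliary β-subunits, *Scn4b*, which shapes resurgent current, rose. It was at 8.77 and 12 CPM and 149.6, 143, 109 and 90.5 CPM, a log2 difference of 3.62 (standard error 0.29, adjusted p = 0.000502). A UMI was found in 17 of 55 P0 neurons and 128 of 154 P12 neurons. *Scn3b* fell from 90.6 and 76.1 CPM to 5.12, 7.35, 15.7 and 17.8 CPM (log2 difference -2.63, adjusted p = 0.00384). Also called higher was *Fgf12*, which encodes a cytosolic partner of these channels. With 1 P0 plate left out, *Scn4b* and *Scn2a* kept their calls, while *Scn8a*, *Scn1a*, *Scn3b*, *Scn3a* and *Scn9a* lost theirs (adjusted p up to 0.247, *Scn3a*). Other alternatives ended the call for *Scn1a* without P12 plate 1, 2 or 3 (adjusted p 0.0524, 0.0601 and 0.058, in this order), for *Scn8a*, *Scn1a* and *Scn9a* after thinning to the same depth, for *Scn3b*, *Scn2a*, *Scn3a* and *Scn9a* with a term for plate numbers, and for *Scn1a* in limma with neurons weighted alike.

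**Figure D3:**
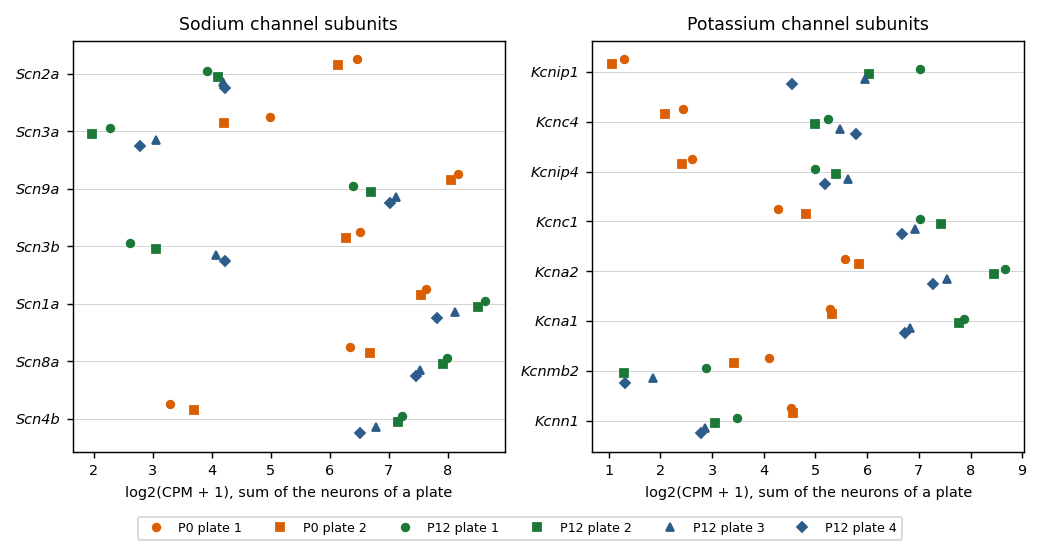
Levels of sodium channel subunits (left) and potassium channel subunits (right), as log2(CPM + 1) of the summed neurons, with 1 symbol per plate. *Scn2a*, *Scn3a*, *Scn9a* and *Scn3b* lie lower at P12 and the other sodium channel genes shown higher, and all potassium channel genes shown but *Kcnmb2* and *Kcnn1* lie higher at P12.

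Many potassium channel genes rose. Of 34 tested, 13 were called higher at P12 and 2 lower, against 7.56% and 8.49% of all genes tested, with a median log2 difference of 0.40. Higher and lower members numbered 13 and 2 on P12 plates 1 and 2 alone, 13 and 8 on plates 3 and 4 alone, 5 and 0 without P0 plate 1, and 5 and 0 without P0 plate 2. Subunits of the Kv3 family, which repolarize fast and allow high firing rates, were among those higher. *Kcnc4* (Kv3.4) was at 4.38 and 3.26 CPM on the P0 plates and 37.1, 30.9, 43.6 and 54.1 CPM on P12 plates 1 to 4, a log2 difference of 3.48 (standard error 0.43, adjusted p = 0.00169). *Kcnc1* (Kv3.1), named after its values were seen, was at 18.3 and 27.2 CPM and 129, 171, 121 and 101 CPM (log2 difference 2.58, adjusted p = 0.00101). Both of these genes lay higher on each P12 plate than on both P0 plates, and none of the 151 named genes that were called overlapped between the stages.

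The Kv1 subunits *Kcna1* and *Kcna2* of the juxtaparanode, also named after their values were seen, rose as well. *Kcna1* was at 38 and 39.2 CPM and 233, 219, 113 and 106 CPM, and *Kcna2* at 46.8 and 56.6 CPM and 404, 348, 187 and 153 CPM (log2 differences 2.14 and 2.43, adjusted p = 0.00529 and 0.0049). *Kcnip1* and *Kcnip4*, partners of Kv4 channels, were low in P0 neurons. *Kcnip1* had 3 UMIs at P0 and 292 at P12, which over the pooled neurons is 47.2 times higher at P12 (95% counting interval 16.0 to 230.3). *Kcnip4* was at 5.12 and 4.35 CPM and 30.7, 41.2, 48.3 and 35.6 CPM (log2 difference 3.09, adjusted p = 0.00145). The members that fell were *Kcnmb2* (-2.10, adjusted p = 0.0406) and *Kcnn1* (-1.55, adjusted p = 0.014), subunits of calcium-activated channels. Also called higher were *Kcnk1*, *Kcnab2*, *Kcnb2*, *Kcnj11*, *Kcnh7* and *Kcnh2*. After 1 P0 plate was removed, *Kcnc4*, *Kcnip4* and *Kcnc1* kept their calls, while *Kcnip1*, *Kcna2*, *Kcna1*, *Kcnmb2* and *Kcnn1* lost theirs (adjusted p up to 0.15, *Kcnmb2*). Further calls were lost for *Kcnmb2* without P12 plate 2 (adjusted p 0.0569), for *Kcnmb2* in limma with neurons weighted alike, and for *Kcnmb2* and *Kcnn1* in DESeq2.

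Calcium channel subunits and related proteins were called in both directions as well. Of 10 genes tested, 4 were called higher and 2 lower, against 7.56% and 8.49% of all genes tested. The counts higher and lower became 2 and 1 without P0 plate 1, 0 and 1 without P0 plate 2, 4 and 2 on the first P12 pair alone, and 4 and 3 on the second alone. Among the α2δ subunits, *Cacna2d1* was at 53.4 and 50 CPM and 5.12, 11.8, 6.3 and 5.93 CPM, while *Cacna2d3* was at 8.04 and 6.53 CPM and 87, 54.4, 43 and 36.3 CPM. Their log2 differences were -2.80 (standard error 0.31, adjusted p = 0.00102) and 2.90 (standard error 0.40, adjusted p = 0.00282). The levels thus moved in opposite directions within 1 subunit family. The β-subunit *Cacnb4* rose from 24.1 and 23.9 CPM to 48.6, 50, 61.4 and 48.9 CPM and *Cacnb3* fell from 65.8 and 82.7 CPM to 38.4, 44.1, 23.6 and 32.6 CPM (log2 differences 1.20 and -1.07, adjusted p = 0.0131 and 0.0229). *Cacng5* and *Cacng2*, of a family that includes partners of AMPA receptors, rose with log2 differences of 1.67 and 3.03 (adjusted p = 0.0024 and 0.0378). On a single P0 plate, *Cacna2d1* kept its call, while *Cacna2d3*, *Cacnb4*, *Cacnb3*, *Cacng5* and *Cacng2* lost theirs (adjusted p up to 0.228, *Cacng2*). The call also ended for *Cacng2* without P12 plate 2 (adjusted p 0.0664), for *Cacnb3* without P12 plate 3 (adjusted p 0.0522), for *Cacnb3* after thinning to the same depth, for *Cacnb3* with a term for plate numbers, and for *Cacnb3* and *Cacng2* in limma with neurons weighted alike.

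Of 17 genes of the axon initial segment and node, 4 were called higher and 1 lower, against 7.56% and 8.49% of all genes tested. P12 plates 1 and 2 alone gave 7 higher and 0 lower, plates 3 and 4 alone 6 and 2, the fit without P0 plate 1 0 and 0, and that without P0 plate 2 0 and 0. The spectrin *Sptbn4*, which anchors channels at nodes, was at 11 and 8.7 CPM and 34.5, 35.3, 23.6 and 29.7 CPM (log2 difference 1.66, adjusted p = 0.00793). *Cntnap2*, the juxtaparanodal partner of Kv1 channels, was at 305 and 276 CPM and 467, 562, 561 and 589 CPM (log2 difference 0.98, adjusted p = 0.0146). *Lgi3* and the membrane scaffold gene *Epb41l3* rose with log2 differences of 1.23 and 0.81 (adjusted p = 0.00387 and 0.02), and *Lgi1* fell by 2.16 on the log2 scale (adjusted p = 0.0246). Of the 5 genes of Hcn channels and their partner, *Hcn3* was the 1 called, lower at P12, against 8.49% of all genes tested. It was at 29.2 and 23.9 CPM and 7.67, 5.88, 6.3 and 5.19 CPM (log2 difference -2.01, adjusted p = 0.00398). Of 8 sodium pump genes tested, 2 were called higher and 2 lower, and 0 were called when either P0 plate was left out. Over all genes tested, 7.56% were called higher and 8.49% lower. The β-subunit *Atp1b1* rose (log2 difference 1.16, adjusted p = 0.0157). The regulators *Fxyd7* and *Fxyd2* were called lower (-0.92 and -2.36, adjusted p = 0.00664 and 0.00841), *Fxyd7* from 2192 and 2079.8 CPM to 1220.0, 1053, 1005 and 1054 CPM. When a P0 plate was dropped, *Sptbn4*, *Cntnap2*, *Lgi3*, *Epb41l3*, *Lgi1*, *Hcn3*, *Atp1b1*, *Fxyd7* and *Fxyd2* lost their calls (adjusted p up to 0.186, *Epb41l3*). Calls were also lost for *Lgi3* and *Epb41l3* after thinning to the same depth, for *Hcn3*, *Atp1b1* and *Fxyd2* with a term for plate numbers, for *Atp1b1* in all wells with at least 2000 genes, and for *Fxyd7* and *Fxyd2* with all plates of the series.

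Genes of transmitter release changed in both directions. Of 32 tested, 10 were called higher and 5 lower, against 7.56% and 8.49% of all genes tested, with a median log2 difference of 0.29 against 0.0196 over all genes. Without P0 plate 1 the counts were 1 higher and 3 lower, without P0 plate 2 2 and 3, on P12 plates 1 and 2 alone 17 and 5, and on plates 3 and 4 alone 11 and 10. The vesicle SNARE *Vamp1* (chromosome 6, 125215581 to 125222306) was at 139.6 and 164 CPM on the P0 plates and 801, 769, 567 and 549 CPM on P12 plates 1 to 4, a log2 difference of 2.19 (standard error 0.21, adjusted p = 0.000594). Its paralogue *Vamp2* (chromosome 11, 69088528 to 69092381) went the other way, from 379 and 321 CPM to 99.7, 110.3, 95.5 and 101 CPM, a log2 difference of -1.72 (standard error 0.16, adjusted p = 0.000594). Of the 154 P12 neurons, 148 lay above the P0 median for *Vamp1* and 4 for *Vamp2*. The calcium sensors synaptotagmin 1 and 2, named after their values were seen, moved apart in the same manner. *Syt2* rose from 164 and 162 CPM to 368, 348, 391 and 365 CPM and *Syt1* fell from 515 and 448 CPM to 102, 98.5, 214 and 191 CPM (log2 differences 1.24 and -1.55, adjusted p = 0.00346 and 0.0204). *Syt1* was lower on the first P12 pair than on the second.

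Other members of the release list that rose were the membrane SNARE *Snap25*, the disassembly factor *Nsf* and *Syt3*. *Snap25* was at 1286 and 1179 CPM and 2732, 2937, 3461 and 3062 CPM (log2 difference 1.38, adjusted p = 0.00409). *Nsf* and *Syt3* rose by 1.42 and 1.83 on the log2 scale (adjusted p = 0.00529 and 0.00203). *Syt7*, *Sv2b*, *Napb* and *Syt11* were also called higher. *Stx1a*, syntaxin 1A, fell from 49.7 and 40.2 CPM to 3.84, 2.94, 2.62 and 5.19 CPM, *Syt5* from 26.3 and 27.2 CPM to 1.28, 1.47, 1.57 and 0 CPM, and complexin 2 (*Cplx2*) from 36.5 and 16.3 CPM to 3.84, 4.41, 7.35 and 7.41 CPM. Their log2 differences were -3.51, -4.45 and -2.02 (adjusted p = 0.000632, 0.00159 and 0.0171). In fits without 1 P0 plate, *Vamp1*, *Vamp2*, *Stx1a* and *Syt5* kept their calls, while *Syt2*, *Syt1*, *Snap25*, *Nsf*, *Syt3* and *Cplx2* lost theirs (adjusted p up to 0.305, *Cplx2*). Other alternatives ended the call for *Nsf* after thinning to the same depth and for *Stx1a* and *Syt5* with a term for plate numbers. Leaving out single plates moved the fitted log2 difference of *Cplx2* to -1.33 (without P0 plate 1).

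**Figure D4:**
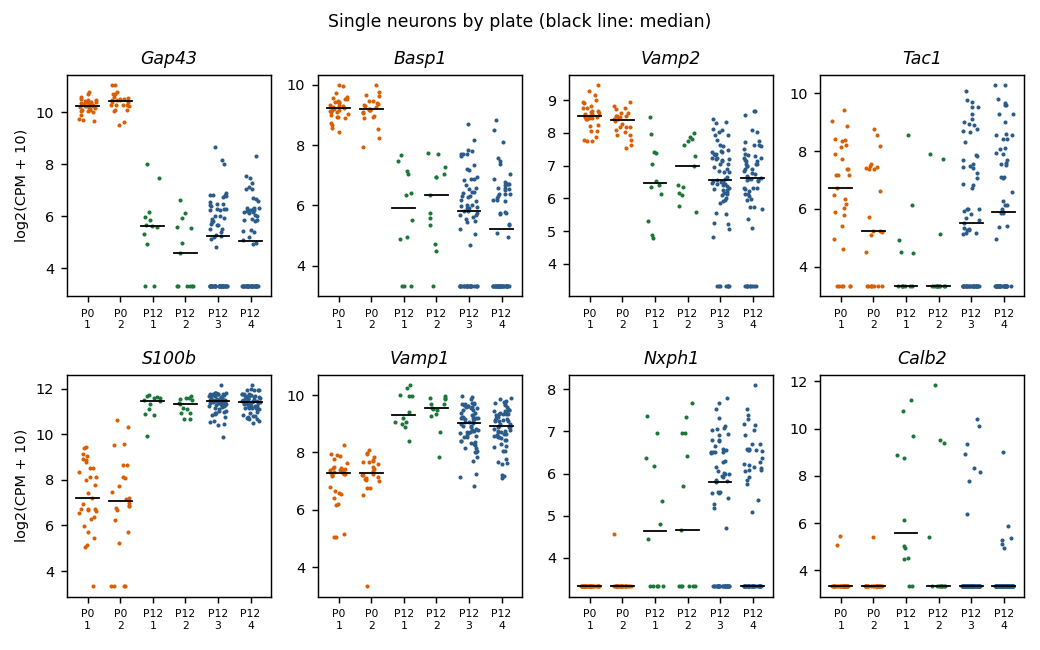
Levels in single neurons by plate, as log2(CPM + 10), with 1 point per neuron and the plate median as a black line, for 3 genes called lower at P12, *Tac1*, which was not called, and 4 genes called higher. Most neurons separate by stage for *Gap43* and *S100b* (no P12 neuron lies above the P0 median of *Gap43*, and 154 of 154 above that of *S100b*), while *Calb2* is high in a minority of P12 neurons and *Tac1* overlaps between the stages.

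Calcium-binding proteins were called in both directions. Of 21 tested, 6 were called higher and 5 lower, against 7.56% and 8.49% of all genes tested. Higher and lower members numbered 8 and 8 on P12 plates 1 and 2 alone, 10 and 7 on plates 3 and 4 alone, 2 and 2 without P0 plate 1, and 2 and 3 without P0 plate 2. *S100b* (chromosome 10, 76253836 to 76261319), which glia also make and which stands on the list of glial markers too, was at 248 and 390.5 CPM on the P0 plates and 2648, 2559.5, 2848 and 2781 CPM on P12 plates 1 to 4. The log2 difference was 3.16 (standard error 0.27, adjusted p = 0.00051). The lowest of the 154 P12 neurons was at 931 CPM, and the median P0 neuron at 132 CPM. *Cabp1*, a regulator of calcium channels, rose from 82.6 and 89.2 CPM to 364, 328, 302 and 252 CPM, and *Caln1* from 13.9 and 15.2 CPM to 44.8, 45.6, 53.5 and 45.2 CPM (log2 differences 1.91 and 1.78, adjusted p = 0.000648 and 0.00325). *S100a11* fell from 35.8 and 19.6 CPM to 0, 1.47, 0.525 and 1.48 CPM, the neuronal calcium sensor hippocalcin (*Hpca*) from 29.2 and 33.7 CPM to 11.5, 1.47, 4.72 and 2.97 CPM, and *Necab2* from 65.8 and 77.2 CPM to 19.2, 19.1, 16.3 and 14.8 CPM (log2 differences -4.79, -2.56 and -1.98, adjusted p = 0.00152, 0.00989 and 0.000881). With 1 P0 plate left out, *S100b*, *Cabp1* and *Necab2* kept their calls, while *Caln1*, *S100a11* and *Hpca* lost theirs (adjusted p up to 0.11, *Hpca*). Further calls were lost for *Necab2* after thinning to the same depth and for *S100a11* and *Hpca* with a term for plate numbers.

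The lists of glutamate and GABA receptors had shares of called genes near that of all genes. Of 16 glutamate, GABA-B and related receptor genes tested, 12.5% were called, and of 6 GABA-A receptor and chloride transport genes 16.7%, against 16.1% of all genes tested. In the first list *Grm3*, a metabotropic glutamate receptor coupled to inhibition, fell from 37.3 and 45.7 CPM to 2.56, 2.94, 0.525 and 0 CPM, and *Grin1*, the shared subunit of NMDA receptors, rose from 47.5 and 43.5 CPM to 115, 113, 67.2 and 69.7 CPM. Their log2 differences were -5.02 and 1.03 (adjusted p = 0.00121 and 0.0298). In the second list *Gabra5* was called, lower at P12 (61.4 and 39.2 CPM and 23, 7.35, 4.72 and 4.45 CPM, log2 difference -2.45, adjusted p = 0.0162). The chloride importer *Slc12a2*, named after its values were seen, was at 15.3 and 22.8 CPM and 6.39, 13.2, 5.25 and 2.97 CPM and was not called (log2 difference -1.50, adjusted p = 0.068), while without P12 plate 2 it was called lower (-1.86, adjusted p = 0.0286). Among growth factor receptors and ligands, *Ret* rose from 1.46 and 2.18 CPM to 26.9, 36.8, 12.1 and 8.16 CPM, and *Nrg1*, the axonal signal to Schwann cells and spindles, from 199 and 186 CPM to 426, 319, 297 and 235 CPM (log2 differences 3.43 and 0.78, adjusted p = 0.0214 and 0.0385). The co-receptors *Gfra3* and *Gfra2* and the neurotrophin *Bdnf* fell with log2 differences of -3.87, -1.24 and -0.85 (adjusted p = 0.00776, 0.0353 and 0.0487). Of 10 mechanotransduction genes tested, *Whrn* was the 1 called, against 16.1% of all genes tested. After 1 P0 plate was removed, *Grm3* kept its call, while *Grin1*, *Gabra5*, *Ret*, *Nrg1*, *Gfra3*, *Gfra2* and *Bdnf* lost theirs (adjusted p up to 0.276, *Bdnf*). The call also ended for *Gfra2* without P12 plate 1, 2 or 3 (adjusted p 0.0531, 0.0548 and 0.0658, in this order), for *Bdnf* without P12 plate 2 or 3 (adjusted p 0.071 and 0.126, in this order), for *Nrg1* without P12 plate 3 (adjusted p 0.0644), for *Nrg1* after thinning to the same depth, for *Gabra5*, *Gfra3* and *Bdnf* with a term for plate numbers, for *Ret* and *Bdnf* in all wells with at least 2000 genes, for *Grin1*, *Ret* and *Nrg1* in limma with neurons weighted alike, for *Gfra2* and *Bdnf* in DESeq2, for *Gfra2* and *Bdnf* with all plates of the series, and for *Gfra2* and *Bdnf* without a filter. The direction of *Grin1* turned after thinning to the same depth (log2 difference -0.08305, adjusted p = 0.92). The direction of *Gfra2* turned with a term for plate numbers (log2 difference 0.87, adjusted p = 0.579). Removal of single plates shifted the fitted log2 difference of *Gabra5* to -3.15 (without P12 plate 1) and of *Gfra3* to -5.09 (without P12 plate 4).

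The largest rises, chosen in the same way as the largest falls, were also in genes of varied function. *Calb2* (chromosome 8, 110142526 to 110168212), the calcium buffer calretinin that the study uses as a subtype marker, came first. It was at 1.46 and 1.09 CPM on the P0 plates and 592, 553, 127 and 18.5 CPM on P12 plates 1 to 4, over a range of levels within P12. It had 3 UMIs in P0 neurons and 1106 in P12 neurons, 178.8 times more over the pooled neurons (95% counting interval 61.0 to 868.5). A UMI was found in 28 of 154 P12 neurons, and the plates differed in how many of them they held, and the fitted log2 difference was 7.80 (standard error 1.76, adjusted p = 0.02). *Kcnip1* and *Cryba2*, a crystallin, also rose, *Cryba2* from 0 and 4.35 CPM to 145, 61.7, 34.6 and 10.4 CPM.

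*Hapln4* and *Fstl1*, which encode secreted proteins, were among these rises. *Hapln4*, a link protein of the matrix at nodes and around fast-firing neurons, was at 5.85 and 12 CPM and 238, 178, 107 and 89.7 CPM, a log2 difference of 4.17 (standard error 0.50, adjusted p = 0.00145). *Fstl1*, a secreted glycoprotein, was at 105 and 83.8 CPM and 1246, 1654, 886 and 795 CPM, a log2 difference of 3.64 (standard error 0.32, adjusted p = 0.000518). Each P12 neuron had a UMI of it, and 153 of 154 lay above the P0 median. The small muscle protein *Smpx*, the actin-binding *Nexn* and the SH3-binding *Sh3bgr* rose from 9.5 and 7.61 CPM to 94.6, 116, 131 and 133 CPM, from 2.92 and 7.61 CPM to 57.5, 76.4, 59.3 and 77.9 CPM, and from 8.04 and 15.2 CPM to 107, 100, 134 and 120.1 CPM. These genes are known mainly from striated muscle, and their log2 differences were 3.84, 3.83 and 3.43 (adjusted p = 0.00051, 0.000931 and 0.000685). The transferrin receptor *Tfrc* rose from 11.7 and 7.61 CPM to 107, 182, 91.3 and 77.9 CPM (log2 difference 3.55, adjusted p = 0.00132). *Hopx* and *Tesc* rose by 3.86 and 3.35 on the log2 scale (adjusted p = 0.00657 and 0.0129). On a single P0 plate, *Hapln4*, *Fstl1*, *Smpx*, *Nexn*, *Sh3bgr* and *Tfrc* kept their calls, while *Calb2*, *Kcnip1*, *Cryba2*, *Hopx* and *Tesc* lost theirs (adjusted p up to 0.241, *Cryba2*). Calls were also lost for *Cryba2* without P12 plate 2 (adjusted p 0.0538), for *Calb2* and *Tesc* after thinning to the same depth, and for *Calb2* and *Cryba2* in limma with neurons weighted alike. The omission of single plates moved the fitted log2 difference of *Cryba2* to between 3.77 (without P0 plate 1) and 9.14 (without P0 plate 2) and of *Nexn* to 3.20 (without P0 plate 1) and 4.60 (without P0 plate 2).

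Genes that the study reports as markers of adult proprioceptor subtypes did not move together. Of 32 tested, 5 were called higher and 4 lower, against 7.56% and 8.49% of all genes tested, with a median log2 difference of -0.000904, and the list was chosen by the study on neurons of the same series. The counts higher and lower became 2 and 0 without P0 plate 1, 2 and 0 without P0 plate 2, 9 and 6 on the first P12 pair alone, and 6 and 13 on the second alone. *Nxph1* (chromosome 6, 8948614 to 9249619) encodes a secreted ligand of neurexins. The promoter window shown above for this gene (8949769 to 8950068) lies within that span, at a later RefSeq start. *Nxph1* had 1 UMI in all P0 neurons and 208 in P12 neurons. It was at 0 and 1.09 CPM on the P0 plates and at 28.1, 38.2, 50.9 and 46.7 CPM on P12 plates 1 to 4, 100.9 times higher over the pooled neurons (95% counting interval 17.9 to 4004). After thinning to 5000 UMIs, it was found in 0 of the 31 and 24 P0 neurons, which allows shares of neurons with a UMI at that depth of up to 9.68% and 12.5% and sets no limit on neurons that express it, and in 25.0%, 30.8%, 23.9% and 24.6% of neurons on the P12 plates. *Calb2* after thinning was found in 0% and 4.17% of P0 neurons and in 50.0%, 23.1%, 8.96% and 1.64% of P12 neurons.

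Of the other subtype genes, *Cpne2* rose and *Kirrel3* fell. *Cpne2* had 3 UMIs at P0 and 66 at P12, 10.7 times higher over the pooled neurons (95% counting interval 3.50 to 53.1). *Kirrel3*, an adhesion molecule, went from 117 and 114 CPM to 56.3, 66.2, 53 and 63.8 CPM (log2 difference -0.88, adjusted p = 0.0175). *Tac1*, which encodes substance P, was not called: it was at 131 and 84.8 CPM at P0, within the range of the P12 plates, 30.7, 17.6, 113 and 139 CPM, where the first pair was low and the second high. *Pou4f3* was at 59.9 and 58.7 CPM at P0 and 29.4, 50, 3.15 and 7.41 CPM at P12, lower on the second P12 pair (log2 difference from P0 -1.57, adjusted p = 0.177). Without P12 plate 2 *Pou4f3* was called lower at P12 (-2.32, adjusted p = 0.0467). *Maf*, not called either, was at 40.9 and 62 CPM and 194, 116, 43 and 32.6 CPM. Such genes differed between the P12 pairs, with log2 differences of plates 1 and 2 minus plates 3 and 4 of -2.56 for *Tac1*, 2.75 for *Pou4f3*, 1.82 for *Maf* and 2.69 for *Calb2* (adjusted p = 7.16e-05, 0.00138, 0.000451 and 0.00147). When a P0 plate was dropped, *Nxph1* kept its call, while *Calb2*, *Cpne2* and *Kirrel3* lost theirs (adjusted p up to 0.17, *Calb2*). Other alternatives ended the call for *Kirrel3* without P12 plate 3 (adjusted p 0.0528), for *Calb2* and *Kirrel3* after thinning to the same depth, for *Kirrel3* with a term for plate numbers, and for *Calb2* and *Kirrel3* in limma with neurons weighted alike. Leaving out single plates moved the fitted log2 difference of *Nxph1* to 5.20 (without P0 plate 1) and 8.69 (without P0 plate 2).

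Within each stage the levels also differed by the authors' clusters. These values are a description, since the clusters were found in the same neurons. *Gap43* was between 1255 and 1390 CPM in the 3 P0 clusters and between 25.1 and 56.5 CPM in the 5 P12 clusters. *Calb2* reached 1369 CPM in P12 cluster 2 and 629 CPM in P12 cluster 5 and at most 10.9 CPM in the other P12 clusters. Those 2 clusters lie on different P12 pairs, and both were also high in *Spp1* (1393 and 2953 CPM), *Nefh* (6177 and 5676 CPM), *Ntrk3* (924 and 869 CPM) and *Kcnip1* (176 and 259.8 CPM). *Nxph1* showed the opposite, at 3.29 and 15.3 CPM in clusters 2 and 5 and at 41.9 to 60.5 CPM in the others. At P0, *Pou4f3* was at 147 CPM in cluster 2, against 31.8 and 4.26 CPM in clusters 1 and 3, and *Tac1* was at 9.93 CPM there, against 144 and 179 CPM. Of the 151 called genes chosen by the naming rule, 30 had P0 and P12 clusters that overlapped in level.

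**Figure D5:**
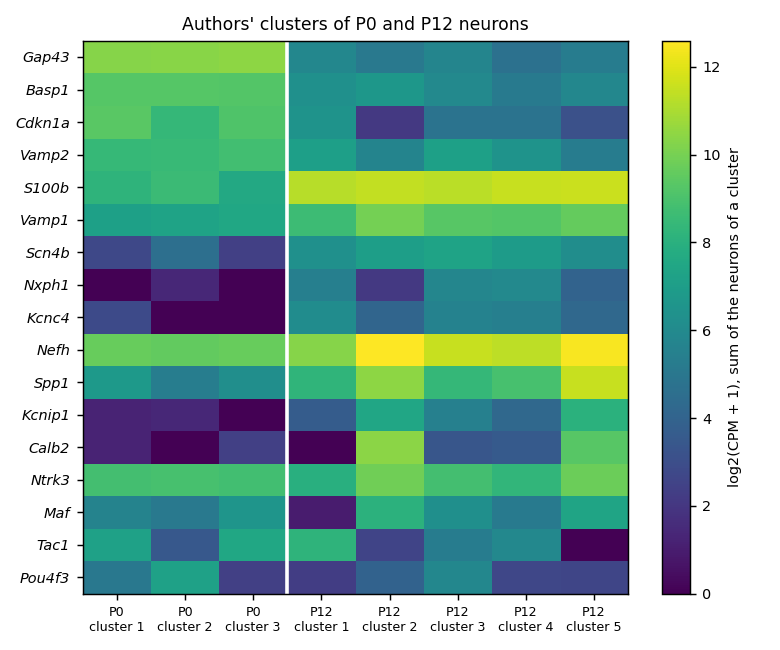
Levels of 17 genes in the authors' 3 P0 clusters and 5 P12 clusters, as log2(CPM + 1) of the summed neurons of a cluster (color). *Gap43*, *Basp1* and *S100b* change at the white line between the stages, while *Calb2*, *Kcnip1* and *Spp1* are brightest in P12 clusters 2 and 5.

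Transcription factors of sensory neurons were called in both directions. Of 38 tested, 10 were called lower at P12 and 4 higher, against 8.49% and 7.56% of all genes tested, with a median log2 difference of -0.38. P12 plates 1 and 2 alone gave 10 higher and 12 lower, plates 3 and 4 alone 5 and 16, the fit without P0 plate 1 0 and 0, and that without P0 plate 2 0 and 1. *Sox4* and *Sox11*, factors of newly born neurons, were at 32.2 and 19.6 CPM and 3.84, 2.94, 2.62 and 2.97 CPM and at 41.7 and 50 CPM and 19.2, 11.8, 8.4 and 5.19 CPM (log2 differences -3.00 and -2.07, adjusted p = 0.00191 and 0.00841). The inhibitors *Id1*, *Id2*, *Id3* and *Id4* of basic helix-loop-helix factors were all called lower. *Id2* was at 56.3 and 50 CPM and 14.1, 29.4, 10.5 and 7.41 CPM and *Id3* at 50.4 and 70.7 CPM and 14.1, 38.2, 12.1 and 16.3 CPM, with log2 differences of -2.61, -1.85 and -1.60 for *Id1*, *Id2* and *Id3* (adjusted p = 0.0374, 0.0168 and 0.0279). Their P0 levels came unevenly from the authors' clusters: *Id1*, *Id2* and *Id3* were at 34.7, 153.8 and 155.5 CPM in P0 cluster 2 (12 neurons) but at 1.38, 15.2 and 8.28 CPM in P0 cluster 1 (35 neurons), where all 3 lay within the range of the P12 clusters. *Bach2* (-1.88, adjusted p = 0.0359), *Bcl11a* and *Meis2* were lower as well, as was *Etv1*. The orphan receptor *Esrrb*, the homeobox gene *Shox2* and *Nfia* rose, with log2 differences of 2.49, 1.43 and 1.11 (adjusted p = 0.0249, 0.0331 and 0.0389). In fits without 1 P0 plate, *Sox4*, *Sox11*, *Id1*, *Id2*, *Id3*, *Bach2*, *Etv1*, *Esrrb*, *Shox2* and *Nfia* lost their calls (adjusted p up to 0.264, *Bach2*). Further calls were lost for *Nfia* without P12 plate 1 or 2 (adjusted p 0.0558 and 0.0512, in this order), for *Bach2* without P12 plate 2, 3 or 4 (adjusted p 0.0537, 0.0579 and 0.0524, in this order), for *Shox2* without P12 plate 2 (adjusted p 0.0553), for *Id3* without P12 plate 3 (adjusted p 0.0642), for *Etv1* without P12 plate 3 or 4 (adjusted p 0.0919 and 0.0607, in this order), for *Shox2* and *Nfia* after thinning to the same depth, for *Sox11*, *Id1*, *Id2*, *Bach2* and *Etv1* with a term for plate numbers, for *Sox4*, *Id1*, *Id2*, *Id3* and *Nfia* in all wells with at least 2000 genes, for *Id1*, *Esrrb* and *Shox2* in limma with neurons weighted alike, for *Id1* and *Bach2* in DESeq2, and for *Nfia* with all plates of the series.

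Of 10 *Hox* genes tested, 3 were called lower and 1 higher, against 8.49% and 7.56% of all genes tested. Without P0 plate 1 the counts were 0 higher and 1 lower, without P0 plate 2 0 and 0, on P12 plates 1 and 2 alone 1 and 3, and on plates 3 and 4 alone 0 and 4. These genes mark position along the body, and the ganglia on each plate are not named in the sources, so stage and level of the ganglia cannot be told apart for them. *Hoxc10* was at 40.9 and 46.8 CPM and 7.67, 5.88, 11.5 and 7.41 CPM, *Hoxc9* at 39.5 and 40.2 CPM and 8.95, 16.2, 7.87 and 9.64 CPM, and *Hoxa10* at 35.8 and 26.1 CPM and 12.8, 17.6, 7.35 and 4.45 CPM (log2 differences -2.26, -1.88 and -1.62, adjusted p = 0.00294, 0.00505 and 0.0334). *Hoxd8* had 1 UMI at P0 and 38 at P12, 18.4 times higher over the pooled neurons (95% counting interval 3.11 to 747). Of 14 imprinted and fetal growth genes tested, *H19* and *Cdkn1c* were called lower and 0 higher, so 14.3% were called, against 16.1% of all genes tested. *H19* had 58 UMIs at P0 and 0 at P12, which with a floor of 3 UMIs over the P12 neurons makes it at least 39.9-fold lower at P12. Its P0 level came mainly from the 8 neurons of P0 cluster 3 (217.4 CPM, against 2.07 and 6.62 CPM in P0 clusters 1 and 2), which also stand apart in glial *Fabp7* (1556 CPM) and *Vim* (204.6 CPM). *Cdkn1c* was at 12.4 and 13.1 CPM and 0, 0, 0 and 2.97 CPM (log2 difference -3.65, adjusted p = 0.0328). With 1 P0 plate left out, *Hoxc10*, *Hoxc9*, *Hoxa10*, *Hoxd8*, *H19* and *Cdkn1c* lost their calls (adjusted p up to 0.27, *Hoxa10*). The call also ended for *Hoxa10* without P12 plate 3 (adjusted p 0.0807), for *Cdkn1c* without P12 plate 3 (adjusted p 0.0592), and for *Hoxa10*, *H19* and *Cdkn1c* with a term for plate numbers. Removal of single plates shifted the fitted log2 difference of *Hoxd8* to 2.97 (without P0 plate 1) and 6.45 (without P0 plate 2), of *H19* to -7.19 (without P0 plate 2) and of *Cdkn1c* to -3.00 (without P12 plate 3) and -6.82 (without P12 plate 4).

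RNA-binding and splicing factors had 5 of 22 tested genes called higher and 0 lower, against 7.56% and 8.49% of all genes tested, although the median log2 difference was -0.25. Higher and lower members numbered 7 and 4 on P12 plates 1 and 2 alone, 5 and 5 on plates 3 and 4 alone, 0 and 0 without P0 plate 1, and 0 and 0 without P0 plate 2. *Mbnl1*, a splicing regulator of maturing tissue, was at 28.5 and 20.7 CPM and 125, 166, 86.6 and 71.2 CPM, a log2 difference of 2.20 (standard error 0.35, adjusted p = 0.00481). *Msi2*, *Fmr1* and *Celf4* rose by 1.99, 1.33 and 1.14 on the log2 scale (adjusted p = 0.0135, 0.0308 and 0.0223), and *Elavl4* was the other member called higher. After 1 P0 plate was removed, *Mbnl1*, *Msi2*, *Fmr1* and *Celf4* lost their calls (adjusted p up to 0.255, *Fmr1*). Calls were also lost for *Mbnl1* and *Celf4* after thinning to the same depth, for *Fmr1* in all wells with at least 2000 genes, and for *Fmr1* with all plates of the series.

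Ribosomal protein genes were lower where they were called. Of 75 tested, 27 were called lower (36.0%, against 8.49% of all genes tested), 0 were called higher and 48 were not called, with a median log2 difference of -0.919. Their summed share of UMIs per neuron was 2.58% and 2.65% on average on the P0 plates and 1.60%, 1.87%, 1.12% and 1.23% on P12 plates 1 to 4. The exact permutation test over plates (two-sided, 15 arrangements) gave p = 0.133, the smallest that 2 against 4 plates can give. *Rpl13* was at 352 and 425 CPM and 67.8, 91.1, 66.7 and 72.7 CPM, a log2 difference of -2.32 (standard error 0.19, adjusted p = 0.000502). *Rpl30* was at 160.1 and 181 CPM and 48.6, 64.7, 8.4 and 13.3 CPM, lower on the second P12 pair than on the first. Against P0, P12 plates 1 and 2 alone gave 41 members lower and 3 higher (17.5% and 16.7% of all genes in that fit), and plates 3 and 4 alone 66 lower and 1 higher (21.3% and 20.6%). Between the P12 pairs, 39 of 71 members were called higher on the first pair, against 8.72% of all genes tested between them. Without P0 plate 1, 3 members were called, and without P0 plate 2, 1. Copies and pseudogenes share sequence with many of these genes, so the split of their UMIs is uncertain. On a single P0 plate, *Rpl13* kept its call, while *Rpl30* lost its own (adjusted p up to 0.168).

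Transcripts of ribosomal protein genes are known to begin with a run of pyrimidines, the 5′ terminal oligopyrimidine tract, and 3 of the genes called lower are shown for it. Each line is 15 bases before and 15 from the RefSeq start on GRCm38.p6, 5′ to 3′ on the strand of the gene, with the first 5 transcribed bases in capitals.
*Rps10*, chromosome 17, - strand: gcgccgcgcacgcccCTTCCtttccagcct
*Rps15a*, chromosome 7, - strand: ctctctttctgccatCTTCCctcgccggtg
*Rps18*, chromosome 17, - strand: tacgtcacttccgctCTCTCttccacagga

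A start with 5 pyrimidines in a row was given for 24.6% of the promoters of the ribosomal protein genes tested (55 of 75 genes matched) and for 34.8% of those called lower (20 of 27 matched). It was given for 4.44% of all promoters, 4.11% of those of tested genes, 4.39% of those of genes called higher and 6.03% of those of genes called lower, the ribosomal genes included.

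Energy and lipid metabolism changed in single enzymes. Of 20 glycolysis genes tested, 4 were called higher and 3 lower, against 7.56% and 8.49% of all genes tested. The counts higher and lower became 0 and 1 without P0 plate 1, 0 and 1 without P0 plate 2, 5 and 4 on the first P12 pair alone, and 7 and 9 on the second alone. The neuronal enolase *Eno2* rose from 403 and 281 CPM to 1005, 881, 553 and 597 CPM and *Eno1b* fell from 204 and 248 CPM to 65.2, 83.8, 57.7 and 56.4 CPM (log2 differences 1.19 and -1.73, adjusted p = 0.0182 and 0.00116). Of the subunits of lactate dehydrogenase, *Ldhb* rose and *Ldha* fell (log2 differences 0.73 and -0.79, adjusted p = 0.0393 and 0.0367). *Aldoc* was at 389.5 and 360.0 CPM and 798, 722, 1387 and 1545 CPM (log2 difference 1.67, adjusted p = 0.0238). Of 26 genes of cholesterol and fatty acid synthesis, 6 were called lower and 1 higher (26.9% called, against 16.1% of all genes tested). P12 plates 1 and 2 alone gave 1 higher and 10 lower, plates 3 and 4 alone 5 and 9, the fit without P0 plate 1 0 and 1, and that without P0 plate 2 0 and 1. *Fdps* was at 36.5 and 38.1 CPM and 8.95, 10.3, 6.3 and 6.67 CPM, and *Mvd*, *Mvk* and *Nsdhl* also fell (log2 differences -2.19, -1.16, -1.05 and -1.01, adjusted p = 0.00206, 0.00864, 0.0268 and 0.019). Of 71 nuclear subunits of oxidative phosphorylation, 1 was called higher (*Ndufa2*) and 0 lower, against 7.56% and 8.49% of all genes tested. Against P0, P12 plates 3 and 4 alone gave 48 of these 71 higher and 8 lower (20.6% and 21.3% of all genes in that fit), and plates 1 and 2 alone 7 higher and 10 lower (16.7% and 17.5%). When a P0 plate was dropped, *Eno1b* and *Fdps* kept their calls, while *Eno2*, *Ldhb*, *Ldha*, *Aldoc*, *Mvd*, *Mvk*, *Nsdhl* and *Ndufa2* lost theirs (adjusted p up to 0.298, *Ldhb*). Other alternatives ended the call for *Ldha* without P12 plate 2, 3 or 4 (adjusted p 0.067, 0.0944 and 0.0622, in this order), for *Mvk* without P12 plate 2 or 3 (adjusted p 0.0505 and 0.0653, in this order), for *Ldhb* without P12 plate 3 or 4 (adjusted p 0.0952 and 0.0617, in this order), for *Ndufa2* without P12 plate 3 or 4 (adjusted p 0.0986 and 0.0633, in this order), for *Eno2* and *Ldhb* after thinning to the same depth, for *Aldoc* and *Ndufa2* with a term for plate numbers, for *Ndufa2* in all wells with at least 2000 genes, for *Ldha* in limma with neurons weighted alike, for *Ldhb* with all plates of the series, and for *Ndufa2* with DESeq2 size factors. The direction of *Ldhb* turned with a term for plate numbers (log2 difference -0.09179, adjusted p = 0.846).

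Markers of other cells were low and were followed over the same plates. The 22 markers of satellite glia and Schwann cells took 0.0865% and 0.104% of the UMIs of a neuron on average at P0 and 0.299% to 0.333% at P12 (exact permutation p = 0.133, the smallest possible). The list summed to 785 and 927 CPM at P0 and 3055 to 3514 CPM at P12, of which *S100b* alone was 248 and 390.5 CPM and 2559.5 to 2848 CPM. Of the 10 members tested, *S100b* was called higher, *Fabp7* (175 and 193 CPM and 102, 70.6, 38.3 and 58.6 CPM) and *Cnp* (45.3 and 30.5 CPM and 10.2, 14.7, 9.97 and 5.19 CPM) were called lower, and 7 were not called (7.56% and 8.49% of all genes tested were called higher and lower). The fall of *Fabp7* lay in P0 cluster 3 (8 neurons), at 1556 CPM, while P0 clusters 1 and 2, at 24.8 CPM each, lay below all 5 P12 clusters (37.1 to 112 CPM). In all 209 neurons the list took under 1% of UMIs. The 17 markers of other sensory neurons summed to 39.2 and 48.2 CPM at P0 and to between 9.64 and 84.4 CPM at P12, with *Trpa1*, *Mrgprd*, *Mrgpra3*, *Sst* and *Prdm12* at 0 on all 6 plates. Markers of blood, vessels, immune cells and connective tissue summed to 13.1 and 15.3 CPM at P0 and to between 2.94 and 24.3 CPM at P12, with 8 of 20 at 0. Dividing cell genes summed to 90.3 and 118 CPM at P0 and to between 60.3 and 69.8 CPM at P12, and *Mcm6* was called lower. Of 14 immediate early and stress genes tested, 3 were called lower (21.4%, against 16.1% of all genes tested called in either direction), 0 higher and 11 were not called. The list took 0.393% and 0.365% of UMIs at P0 and 0.131% to 0.178% at P12 (exact permutation p = 0.133), most of it *Hspa8*. The members called were *Jund* (182 and 188 CPM and 33.2, 55.9, 27.8 and 29.7 CPM), the chaperone *Hspa8* (3244 and 2977 CPM and 1247, 1376, 1114 and 1017 CPM) and *Dusp1*. In fits without 1 P0 plate, *S100b*, *Jund* and *Hspa8* kept their calls, while *Fabp7*, *Cnp*, *Mcm6* and *Dusp1* lost theirs (adjusted p up to 0.28, *Mcm6*). Further calls were lost for *Mcm6* without P12 plate 3 (adjusted p 0.0604), for *Cnp* and *Mcm6* with a term for plate numbers, and for *Cnp* and *Mcm6* in all wells with at least 2000 genes. The direction of *Fabp7* turned in all wells with at least 2000 genes (log2 difference 0.04627, adjusted p = 0.945). The omission of single plates moved the fitted log2 difference of *Dusp1* to -1.14 (without P0 plate 1). Transcripts of mitochondrial DNA took 2.38% and 2.34% of UMIs at P0 and 1.88% to 2.84% at P12 (exact permutation p = 0.933). Of 8 such genes tested, 2 were called lower (25.0%, against 8.49% of all genes tested). *mt-Nd1* was at 7290.0 and 7352 CPM and 3542, 4660.3, 4396 and 4567 CPM, and *mt-Nd3* at 143 and 158 CPM and 30.7, 51.5, 6.3 and 4.45 CPM. Their log2 differences were -0.70 and -2.86 (adjusted p = 0.0498 and 0.022). With 1 P0 plate left out, *mt-Nd1* and *mt-Nd3* lost their calls (adjusted p up to 0.348, *mt-Nd1*). The call also ended for *mt-Nd1* without P12 plate 1, 2 or 3 (adjusted p 0.0571, 0.0841 and 0.116, in this order), for *mt-Nd1* with a term for plate numbers, for *mt-Nd1* in all wells with at least 2000 genes, for *mt-Nd1* without a filter, and for *mt-Nd1* with DESeq2 size factors. Leaving out single plates moved the fitted log2 difference of *mt-Nd3* to -3.59 (without P12 plate 2). The part of these markers in the other results was not tested.

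Levels at the neighbouring stages are given beside these, with no test, for genes named above. E14.5 neurons (2 plates of embryos) came from another reporter, TrkC:tdTomato, so stage and reporter cannot be told apart there, and adult neurons (5 plates) came from the reporter used at P0 and P12. *Gap43* was at 2137 to 2367 CPM in embryos, 1211 and 1379 CPM at P0, 20.6 to 65.2 CPM at P12 and 2.93 to 11.4 CPM in adults. *Basp1* was at 471 to 587 CPM, 631 and 600.4 CPM, 46.7 to 81.8 CPM and 1.04 to 13.6 CPM in the same order. Both genes thus lay lower at each later stage from P0 on. *Cdkn1a* was at 45.1 to 70.4 CPM in embryos and 1.26 to 4.46 CPM in adults, below its P0 level on either side. *Vamp1* was at 6.13 to 6.6 CPM in embryos and 716 to 774 CPM in adults, the latter within the range of its P12 plates (549 to 801 CPM). *Scn4b* was at 0 to 2.2 CPM and 95.2 to 172 CPM at those stages, and *Nefh* at 38.8 to 44 CPM and 3449 to 5693 CPM. Adult levels of *Scn4b* overlapped its P12 plates (90.5 to 149.6 CPM), as those of *Nefh* did (2154 to 4453 CPM). *S100b* (3575 to 4169.6 CPM) and *Spp1* (1093 to 1752 CPM) lay higher in all adult plates than on any P12 plate, and *Pvalb* (1722 to 2286 CPM) lower.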

How the data were processed

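Each plate was deposited as a table of UMI counts per gene and well, and the authors' annotation lists the wells they kept. By the study's account, kept P0 and P12 neurons had over 2000 genes and passed limits on glial *Mbp* and *Apoe*. They also had to lie in clusters of a minimum size. By the submitters' processing notes the authors aligned reads with STAR to mm10 (GRCm38); versions are not given in the sources used here. Counts of kept neurons were summed by plate (680212 to 1905013 UMIs a plate) and tested with edgeR 4.0.16 in R 4.3.3: filterByExpr, TMM scaling and the quasi-likelihood F-test, with Benjamini-Hochberg adjustment over all genes tested and calls at an adjusted p under 0.05. Standard errors are those of the log2 difference. Single measures were compared by exact permutation over plates. Counting intervals and floors (3 UMIs) cover counting error only. 1 P12 neuron with under 5000 UMIs was left out of thinned values. DESeq2 1.42.0 and limma 3.58.1 served as alternatives. No plates repeated each other's counts. The scripts were tested on simulated data.

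Named genes are the 12 largest called falls and rises at 50 CPM or more, up to 4 called genes per list and direction, whole short lists, and genes the study names. *Kcna1*, *Kcna2*, *Kcnc1*, *Stmn1*, *Syt1*, *Syt2*, *Ncam1* and *Slc12a2* were added after their values were seen, and some other called members are listed by name. Some genes that the rule names are not reported here, although the counts include them. The comparison, the lists and the tests were chosen with earlier results of these data known. Protein sequences, and promoters of genes missing from the RefSeq table, were not used here.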

Additional observations from a re-analysis of the deposited data

Results flagged for a closer look

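Among the 4 P12 plates, 187 genes and 9 measures were searched for a plate that stood far from the other three (Dixon's ratio over its 95% critical value), a test that by chance marks about 1 in 20 groups. The search marked 11 genes and 1 measure, 3 of them for plate 1, 2 for plate 2, 3 for plate 3 and 4 for plate 4. Plate 1 was highest for *Prph*, the filament peripherin (1478 CPM), for *Gabra5* (23.0 CPM) and for the share of UMIs of other sensory neuron markers (0.00723%). Plate 2 was highest for *Plxnd1* (23.5 CPM) and *Id3* (38.2 CPM). Plate 3 was highest for *Cacnb4* (61.4 CPM), *Caln1* (53.5 CPM) and *Atp1b2* (0.525 CPM, with the other three at 0). Plate 4 was highest for *Reg3b* (1.48 CPM), *Dcx* (0.741 CPM), *Nkain1* (0.741 CPM) and *Cdkn1c* (2.97 CPM), the other P12 plates being at 0 for these genes. With the other plates at 0 the ratio is 1 whatever the value. *Atp1b2*, *Reg3b*, *Dcx*, *Nkain1* and *Cdkn1c* were thus bound to be marked, and the chance share of 1 in 20 does not apply to them. For *Reg3b*, *Dcx*, *Plxnd1*, *Cdkn1c*, *Gabra5* and *Id3* every P12 plate still lay below both P0 plates, and for *Cacnb4* and *Caln1* above both.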

How the results depend on the processing

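With the 1569 called genes (739 higher, 830 lower) as the reference, thinning to 5000 UMIs gave 418 (164 and 254; fewer genes reached the filter), all wells with at least 2000 genes 2525 (1288 higher), P12 plates 1 and 2 only 2876 (1403 and 1473), plates 3 and 4 only 4052 (1991 and 2061), and the term for the P12 pairs, added after the data were seen, 3718 (1720 and 1998). Without a filter 1164 genes were higher, and limma with neurons weighted alike had 480 higher. Leaving out 1 plate gave 201 to 1712 called genes, 77 to 810 higher and 124 to 902 lower, the lowest of each without a P0 plate. DESeq2 size factors, DESeq2, all plates together and the term for plate numbers gave 1564, 1259, 2162 and 1835. Between the P12 pairs, 1874 genes were called and 478 after thinning. Directions turned for *Pou4f1* (1.69), *Gfra2* (0.87) and *Ldhb* (-0.09179) with the term for plate numbers, for *Fabp7* (0.04627) in all wells, for *Tubb4b* (0.56) on P12 plates 1 and 2, and for *Grin1* (-0.08305) after thinning; the cause was not tested. Of the 151 named genes that were called, 33 kept the call in every alternative run for them and 37 lost it only without a P0 plate. In the P12 pairs, 145 of them could be tested in both and were called in each, and all 151 were called with the pair term. These genes were chosen by their calls on the same plates, and both pair fits share the P0 plates, so this is no separate check. Of all 1569 called genes, 1470 could be tested in both pairs and 1424 were called in each. All 1569 were called with the pair term. No paired analysis was possible because the labels number no replicates and the plate numbers used here, given in accession order, tie no P0 plate to a P12 plate. Depth limits genes at a few UMIs, for which counting intervals are given, and 2 P0 plates limit every call.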
